A study of Homo sapiens with 8 samples.

Results

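The integrin and laminin genes are 38 protein-coding genes of the 58735 in the deposited table, taken by gene symbol: 26 integrin chains (18 alpha and 8 beta) as the receptor side and 12 laminin chains as the ligand side. The rule uses symbols and gene type and no measured value, although the families were chosen with earlier results of these data known. Transcripts were measured by poly(A) RNA sequencing in PC3, a widely used human prostate cancer cell line, in 4 libraries labelled siPRMT7 and 4 labelled siCtrl. The siPRMT7 cells carry the genotype label PRMT7 knockdown and the siCtrl cells the label WT. Both groups received their synthetic RNAs by lipofection and were kept for 48 h afterwards. Titles name the libraries with si, whereas their library names read sh. The sources used here do not say how many RNA sequences targeted PRMT7, or whether each replicate was its own culture. The p-values therefore cover only the spread between these libraries, which may be technical.

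Integrins are heterodimers of one alpha and one beta chain in the plasma membrane, where they bind proteins of the extracellular matrix or of other cells and link them to the actin or keratin cytoskeleton. The pairing decides the ligand: alpha 3 beta 1, alpha 6 beta 1, alpha 7 beta 1 and alpha 6 beta 4 bind laminins, other beta 1 pairs bind collagens or fibronectin, and beta 2 pairs are known from leukocytes. Laminins are trimers of an alpha, a beta and a gamma chain and a main component of basement membranes. LAMA3 and LAMB3 encode chains of laminin-332, the laminin of epithelial anchoring sites. In normal prostate, basal epithelial cells rest on a laminin-332 matrix through alpha 6 beta 4 in hemidesmosomes, and both are known to be reduced in many prostate carcinomas.

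PRMT7, the arginine methyltransferase that was targeted, overlapped between the groups. It had 4.62, 4.31, 5.01 and 4.82 FPKM (fragments per kilobase of gene length, scaled to library size) in siPRMT7 libraries 1 to 4, against 5.24, 4.86, 5.10 and 5.25 FPKM in siCtrl libraries 1 to 4. The means differed by -8.29%, with a two-sided exact permutation p of 0.0571, where 0.0286 is the smallest that 70 assignments allow. The libraries held 14526030 to 15724862 fragments. The siPRMT7 library 2 stood apart, at 28.4 on the first principal component, where the other 7 libraries lay between -11.9 and 7.36. Many results are given with and without it. Single genes that work with integrins and laminins are given with all 8 libraries only. Of 5 epithelial markers 4 reached 1 FPKM, with a summed level of 410 to 517 FPKM in siPRMT7 and 398 to 436 FPKM in siCtrl libraries; the fifth, the epithelial cadherin CDH1, stayed at or below 0.573 FPKM. The androgen-regulated genes KLK2 and KLK3 were at 0 in all 8 libraries. Leukocyte markers summed to 1.04 to 1.45 FPKM in siPRMT7 and 0.711 to 1.12 FPKM in siCtrl libraries, with CD3E at 0. Endothelial markers summed to 3.59 to 4.30 FPKM in siPRMT7 and 4.01 to 4.32 FPKM in siCtrl libraries, mostly from PECAM1, with VWF at most at 0.0192 FPKM. Fibroblast markers summed to 8.50 to 9.96 FPKM in siPRMT7 and 8.32 to 9.77 FPKM in siCtrl libraries, mostly from COL1A1, with DCN at most at 0.0107 FPKM.

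The most abundant integrin chains in PC3 cells, ITGA3, ITGB1 and ITGB4, belong to laminin receptors, although ITGB1 also serves other receptors. The collagen receptor chain ITGA2 came next, averaging 60.5 FPKM in siPRMT7 and 67.9 FPKM in siCtrl libraries. It lay above the laminin receptor chain ITGA6, at 30.8 FPKM in siPRMT7 and 35.0 FPKM in siCtrl libraries. The most abundant laminin chain was one of laminin-332. Of the 38 chains 22 passed a filter on low values, 14 integrin and 8 laminin chains. The filter asked for 4 or more of the 8 libraries at 1 FPKM or above. Among these, levels per gene length were highest for ITGA3, at 334 ± 35.7 FPKM in siPRMT7 and 346 ± 13.2 FPKM in siCtrl libraries (SD, n = 4 each, as for all means below). ITGA7 had the lowest siCtrl mean, at 1.11 ± 0.272 FPKM in siPRMT7 and 0.913 ± 0.124 FPKM in siCtrl libraries. The lowest siPRMT7 mean was that of ITGB2, at 1.09 ± 0.171 FPKM. ITGA3, the alpha 3 chain, made up 70.8 ± 0.747% of the summed alpha chain FPKM in siPRMT7 and 69.7 ± 0.792% in siCtrl libraries. ITGB1, the partner of most alpha chains, made up 59.8 ± 3.84% of the beta chain sum in siPRMT7 and 61.8 ± 1.105% in siCtrl libraries. ITGB4, whose only partner is alpha 6, made up 34.5 ± 3.87% in siPRMT7 and 32.7 ± 1.45% in siCtrl libraries. LAMB3, the most abundant laminin chain, made up 47.2 ± 2.52% of the laminin sum in siPRMT7 and 45.9 ± 0.567% in siCtrl libraries. Both LAMB3 and LAMA3 belong to laminin-332, and the FPKM of LAMB3 was 5.63 ± 0.934 times that of LAMA3 in siPRMT7 and 5.16 ± 0.107 times in siCtrl libraries. Levels of different genes depend on the length used for each. That length is the union of all annotated exons, which ranged over the 22 tested chains from 1.005 times the transcript with the longest coding sequence (ITGA2) to 2.67 times (ITGA3).

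**Figure D1:**
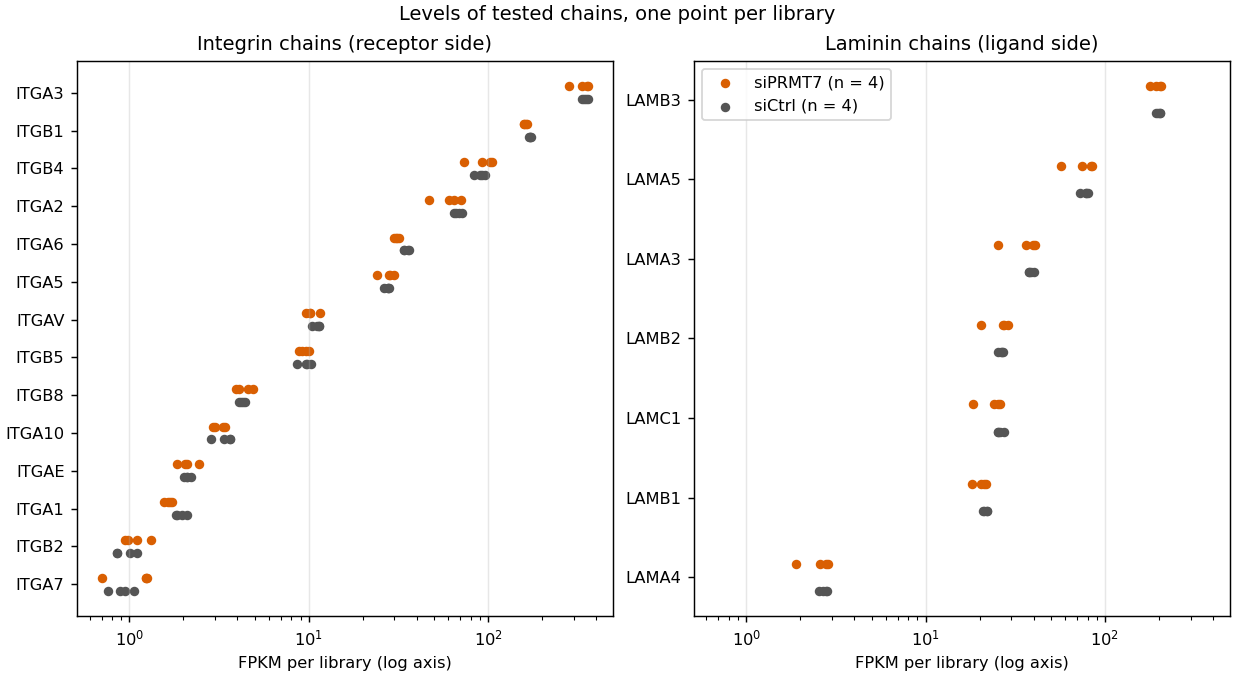
FPKM of tested chains on a log axis, 1 point per library, siPRMT7 points above siCtrl points in each row, integrins on the left and laminins on the right. Levels run from about 1 FPKM (ITGA7, ITGB2) to 346 FPKM (siCtrl mean of ITGA3), and for most chains the groups lie on top of each other.

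The other 16 chains stayed at or below 0.468 FPKM in every library. Among them were all 4 alpha chains that pair with ITGB2 in leukocytes, with maxima of 0.0206 FPKM for ITGAL, 0.181 for ITGAM, 0.0187 for ITGAX and 0.0755 for ITGAD. The collagen receptor chain ITGA11 and the chains ITGA4, ITGA8 and ITGA9 reached at most 0.0635, 0.0169, 0.0166 and 0.0414 FPKM. ITGB7, the partner of ITGAE, reached 0.215 FPKM, and the alpha V partners ITGB3 and ITGB6 reached 0.288 and 0.142 FPKM. The platelet chain ITGA2B reached 0.468 FPKM. Of the laminins LAMA1, LAMA2 and LAMC3 reached 0.0874, 0.373 and 0.236 FPKM, and LAMB4 had 0 fragments in all 8 libraries, which allows up to 3 fragments per library, 0.191 to 0.207 ppm of the library, by counting error only. Of the exonic bases of ITGB3 and ITGB7, 51.6% and 42.1% are shared with another gene, so their values are uncertain.

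Between siPRMT7 and siCtrl libraries no integrin or laminin chain passed the test across all genes. The limma test on log2(FPKM + 1), with Benjamini-Hochberg adjustment over the 13436 genes tested, called 2 genes at an adjusted p of 0.05, which is 0.0149%; both were higher (0.0149%), 0 were lower (0%), and neither is a member. Of the 22 chains 16 had a log2 fold change below 0, as had 50.5% of all genes tested; without siPRMT7 library 2 it was 10 of 22. At an unadjusted p under 0.05 there were 2 chains, both lower, against 13.2% of all genes (7.67% higher and 5.49% lower). The median log2 fold change was -0.06 over the 22 chains, against -0.0015 over all genes tested, and it was 0.0072 over the 22 without siPRMT7 library 2. These 22 are not all members, and for ITGA7 the filter was met by 3 siPRMT7 libraries and 1 siCtrl library. In bulk RNA, fewer cells expressing a chain and less RNA per cell cannot be told apart.

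**Figure D2:**
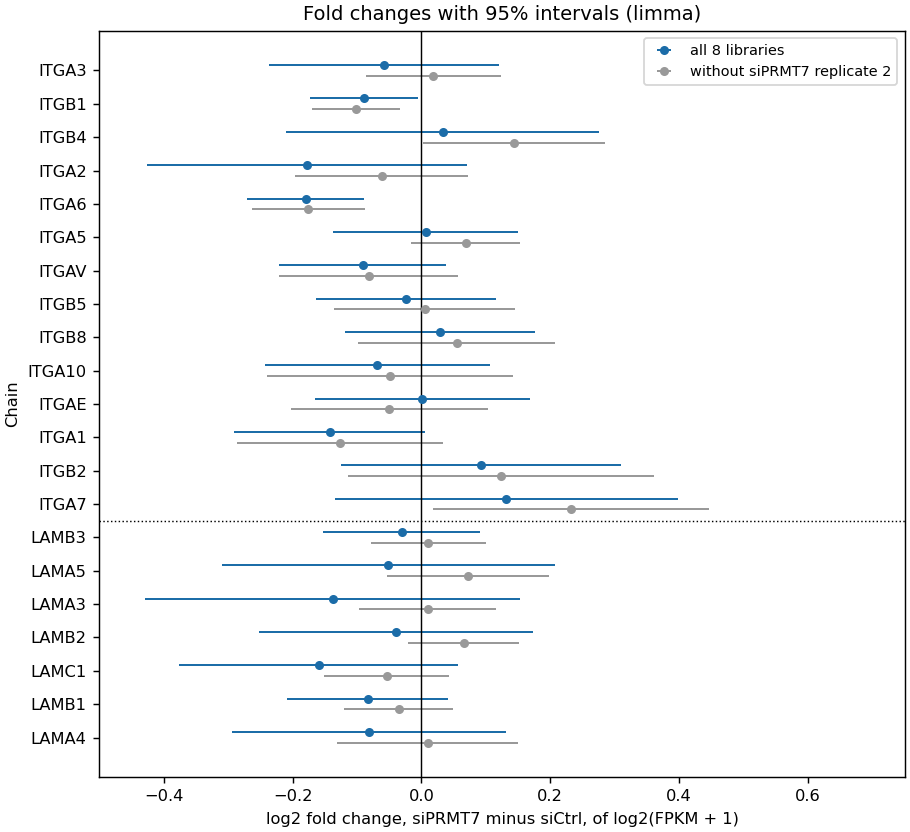
Log2 fold change (siPRMT7 minus siCtrl) of tested chains with 95% intervals from limma, in blue from all 8 libraries and in grey without siPRMT7 library 2; integrins stand above the dotted line and laminins below it. The intervals of ITGA6 and ITGB1 lie below 0 in both fits, while the estimates of LAMB3, LAMA5, LAMA3, LAMB2 and LAMA4 move above 0 without that library.

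Of the 14 tested integrin chains, 3 had every siPRMT7 library below every siCtrl library, against 4.43% of all genes tested: ITGA6, ITGB1 and ITGA1. None lay wholly above, against 4.14% of all genes. These chains are known to pair as alpha 6 beta 1, a laminin receptor, and alpha 1 beta 1, a receptor of collagens that also binds laminins. Leaving out a library cannot make separate groups overlap, so the same 3 had to stay apart without siPRMT7 library 2, which is no further support. Without that library 6.56% of all genes lay wholly below.

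ITGA6 (ENSG00000091409, chromosome 2, 172427354 to 172506282, plus strand), the alpha 6 chain of laminin receptors, had 31.9, 30.5, 30.9 and 29.7 FPKM in siPRMT7 libraries 1 to 4, against 34.02, 36.0, 34.1 and 35.8 FPKM in siCtrl libraries 1 to 4. The highest siPRMT7 library was thus below the lowest siCtrl library, and the spread within each group was about 1 FPKM (SD 0.913 in siPRMT7 and 1.07 in siCtrl). The means differed by -12.1%, a log2 fold change of -0.18 (95% interval -0.27 to -0.09). The unadjusted limma p was 0.0015, rank 107 of the genes tested, and the limma adjusted p was 0.182. Each library held 2837 to 3766 fragments of ITGA6. Without siPRMT7 library 2 the log2 fold change was -0.18 and the limma adjusted p 0.169. The groups also stayed apart when each library's trend on gene length was removed, where the log2 fold change was -0.16. Of the exonic bases of ITGA6 5.37% are shared with noncoding genes on the opposite strand such as ITGA6-AS1, and whether counting used strand is not given.

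ITGB1 (ENSG00000150093, chromosome 10, 32900319 to 33005792, minus strand), the common beta 1 chain, had 162, 165, 159 and 158 FPKM in siPRMT7 libraries 1 to 4. In siCtrl libraries 1 to 4 it had 172, 171, 168 and 173 FPKM. The library that stood apart was here the highest of its group and still below every siCtrl library. The mean was 161 ± 3.38 FPKM in siPRMT7 and 171 ± 1.90 FPKM in siCtrl libraries, a difference of -5.98%, with a log2 fold change of -0.09 (95% interval -0.17 to -0.005). The unadjusted limma p was 0.0406 and the limma adjusted p 0.36. Without siPRMT7 library 2 the log2 fold change was -0.10 and the limma adjusted p 0.237. With the length trend removed or with quantile normalization the groups overlapped, and the log2 fold changes were -0.07 and -0.17.

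ITGA1 (ENSG00000213949, chromosome 5, 52787896 to 52959210, plus strand), the alpha 1 chain of a collagen receptor, was expressed at a low level. It had 1.64, 1.56, 1.73 and 1.68 FPKM in siPRMT7 libraries 1 to 4, against 1.85, 1.82, 1.97 and 2.09 FPKM in siCtrl libraries 1 to 4. The gap between the groups was smaller than the spread within siCtrl libraries (SD 0.122), and the log2 fold change was -0.14 with an interval from -0.29 to 0.006 and a limma adjusted p of 0.388. With the length trend removed it was -0.03 and the groups overlapped. The nested gene PELO and 3 noncoding genes share 6.39% of its exonic bases, and its annotated length of 18566 bases is the longest of the 22.

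**Figure D3:**
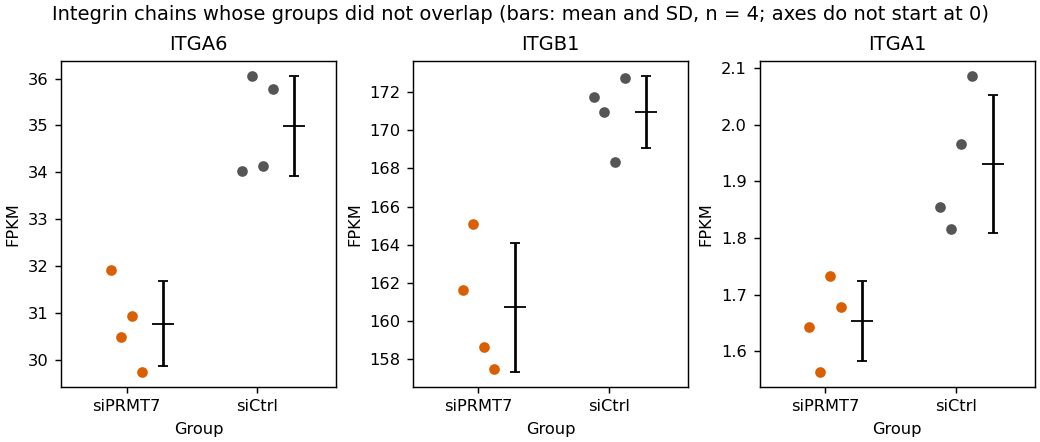
FPKM per library of the 3 integrin chains whose groups did not overlap, siPRMT7 left of siCtrl, with the mean and SD (n = 4) beside the points and axes that do not start at 0. For ITGA6 the siPRMT7 libraries lie between 29.7 and 31.9 FPKM and the siCtrl libraries between 34.02 and 36.0 FPKM.

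The 250 bases before the RefSeq start of ITGA6, ITGB1 and ITGA1 are shown because these are the 3 receptor chains whose groups did not overlap, and those of LAMA3 because it was the 1 tested chain with an AP-1 motif there. Sequences are from RefSeq on GRCh38.p14, 5′ to 3′ on the strand of the gene. Capitals mark matches on either strand to the GC box GGGCGG, the AP-1 motif TGANTCA and the E-box CACGTG; no matches overlap each other.
ITGA6 (chr2:172427086-172427335, plus strand): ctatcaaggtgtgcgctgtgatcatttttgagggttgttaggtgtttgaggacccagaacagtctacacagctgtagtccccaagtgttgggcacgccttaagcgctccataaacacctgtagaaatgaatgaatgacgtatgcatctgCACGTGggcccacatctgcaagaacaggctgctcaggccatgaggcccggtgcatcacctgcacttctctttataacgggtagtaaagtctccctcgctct
ITGB1 (chr10:32958231-32958480, minus strand): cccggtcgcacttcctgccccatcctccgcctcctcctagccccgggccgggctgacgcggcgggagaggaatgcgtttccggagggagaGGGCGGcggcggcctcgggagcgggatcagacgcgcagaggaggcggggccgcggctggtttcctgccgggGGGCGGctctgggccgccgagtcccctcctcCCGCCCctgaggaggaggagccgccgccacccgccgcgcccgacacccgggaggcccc
ITGA1 (chr5:52787666-52787915, plus strand): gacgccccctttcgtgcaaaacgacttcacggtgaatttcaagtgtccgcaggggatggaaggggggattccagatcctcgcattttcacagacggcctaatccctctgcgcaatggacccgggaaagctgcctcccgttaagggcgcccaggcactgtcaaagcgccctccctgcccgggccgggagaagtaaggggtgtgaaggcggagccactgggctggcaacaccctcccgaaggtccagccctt
LAMA3 (chr18:23872770-23873019, plus strand): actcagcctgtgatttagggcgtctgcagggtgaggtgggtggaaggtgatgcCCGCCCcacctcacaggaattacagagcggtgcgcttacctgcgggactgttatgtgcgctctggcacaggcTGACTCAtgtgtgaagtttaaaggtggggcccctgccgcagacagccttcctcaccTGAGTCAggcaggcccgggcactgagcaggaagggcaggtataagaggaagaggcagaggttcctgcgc
The ITGB1 window held 3 GC boxes, and GC boxes were present in 42.6% of 35116 promoter windows of the same length. The ITGA6 window held 1 E-box, present in 6.34% of all windows, and the ITGA1 window held none of the 3 motifs. The LAMA3 window held 2 AP-1 motifs, and 1 GC box, and 6.57% of all windows held at least 1 AP-1 motif. It lies before an internal start 183577 bases from the first annotated one. The ITGB1 start likewise lies 47562 bases inside the annotated gene. Of the 22 tested chains 17 had a promoter entry, of which 11 held a GC box, 1 an AP-1 motif and 1 an E-box. For each chain only the first entry listed was used, so other starts of the same gene were not searched. The shares over all windows were not limited in this way. Among the chains without an entry were ITGA3, ITGB4, ITGB2 and ITGA7.

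The other laminin receptor chains overlapped between the groups when all 8 libraries were used. ITGA3 (chromosome 17), the most abundant chain, had 357, 283, 335 and 360 FPKM in siPRMT7 libraries 1 to 4, against 351, 332, 341 and 362 FPKM in siCtrl libraries 1 to 4. Only siPRMT7 library 2 lay outside the siCtrl range. The log2 fold change of ITGA3 was -0.06 (95% interval -0.24 to 0.12) and 0.02 without that library (-0.09 to 0.12). ITGB4 (chromosome 17), which anchors keratin filaments in hemidesmosomes, had 105, 73.3, 92.6 and 102 FPKM in siPRMT7 libraries 1 to 4. In siCtrl libraries 1 to 4 it had 90.0, 83.0, 92.7 and 96.2 FPKM. Both the highest and the lowest of the 8 ITGB4 values were thus in siPRMT7 libraries. Its log2 fold change was 0.03 (95% interval -0.21 to 0.28), and 0.14 without siPRMT7 library 2 (0.002 to 0.29, limma adjusted p = 0.38). The ratio of ITGA6 to ITGB4 was 0.303, 0.416, 0.334 and 0.291 in siPRMT7 libraries 1 to 4. In siCtrl libraries 1 to 4 it was 0.378, 0.434, 0.368 and 0.372. ITGA7, the laminin receptor chain of muscle, had 1.25, 0.700, 1.24 and 1.24 FPKM in siPRMT7 libraries, against 0.761, 0.942, 0.891 and 1.06 FPKM in siCtrl libraries. It was the 1 chain wholly above the siCtrl range without siPRMT7 library 2, where 5.97% of all genes were. Its log2 fold change was 0.23 without that library (limma adjusted p = 0.354). Each of the 8 libraries held between 67 and 124 of its fragments. ITGA7 met the filter through 3 siPRMT7 libraries and 1 siCtrl library, so this separation is no independent support for a difference.

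The collagen receptor chain ITGA2 and the chains binding RGD, the short peptide motif of fibronectin and vitronectin, overlapped between groups. ITGA2 had 70.4, 46.8, 60.2 and 64.5 FPKM in siPRMT7 libraries 1 to 4, against 66.1, 68.9, 64.6 and 71.8 FPKM in siCtrl libraries 1 to 4. Its values in siPRMT7 libraries 2, 3 and 4 lay below the siCtrl range and that in library 1 within it. The log2 fold change was -0.18 (95% interval -0.43 to 0.07), and -0.06 without siPRMT7 library 2. ITGA5, the alpha chain of the main fibronectin receptor, averaged 27.6 ± 2.45 FPKM in siPRMT7 and 27.4 ± 0.781 FPKM in siCtrl libraries, with an interval of the log2 fold change from -0.14 to 0.15. ITGAV, the alpha V chain, had 11.5, 10.1, 9.66 and 10.2 FPKM in siPRMT7 libraries, against 10.5, 11.4, 11.1 and 11.4 FPKM in siCtrl libraries. As with ITGA2, library 1 was the highest of the siPRMT7 libraries and the other 3 were below every siCtrl library. Its log2 fold change was -0.09 (95% interval -0.22 to 0.04, limma adjusted p = 0.50). The alpha V partners were ITGB5, at 9.43 ± 0.535 FPKM in siPRMT7 and 9.61 ± 0.724 FPKM in siCtrl libraries, and ITGB8, at 4.36 ± 0.441 FPKM in siPRMT7 and 4.25 ± 0.131 FPKM in siCtrl libraries. For both, the interval of the log2 fold change covered 0 and lay within -0.16 and 0.18. The collagen receptor chain ITGA10 had 3.18 ± 0.244 FPKM in siPRMT7 and 3.39 ± 0.373 FPKM in siCtrl libraries.

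Of the chains known mainly from leukocytes, ITGAE and ITGB2 passed the filter, ITGB2 with values on both sides of 1 FPKM. ITGAE, the alpha E chain that binds E-cadherin, had 2.11 ± 0.252 FPKM in siPRMT7 and 2.099 ± 0.0793 FPKM in siCtrl libraries, while its partner ITGB7 stayed below the filter. Of its exonic bases 7.59% are shared with genes on the opposite strand, among them HASPIN. ITGB2, the beta 2 chain, had 1.09 ± 0.171 FPKM in siPRMT7 and 0.956 ± 0.124 FPKM in siCtrl libraries, from 88 to 140 fragments. None of its alpha partners passed the filter.

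All 8 tested laminin chains had a lower mean in siPRMT7 than in siCtrl libraries, and all 8 had their lowest value in siPRMT7 library 2. Without that library 3 of the 8 had a log2 fold change below 0. The median over the 8 chains was -0.08 with all libraries and 0.0097 without it. LAMA3 (chromosome 18), the alpha chain of laminin-332, had 40.6, 25.5, 36.3 and 39.9 FPKM in siPRMT7 libraries 1 to 4, against 38.9, 37.8, 37.7 and 40.2 FPKM in siCtrl libraries 1 to 4. In library 2 it differed from the siCtrl mean by -0.58 on the log2(FPKM + 1) scale, the largest such difference over the 22 tested chains and 8 libraries. The log2 fold change of LAMA3 was -0.14 with all libraries (95% interval -0.43 to 0.15) and 0.0096 without library 2. LAMB3 (chromosome 1), the beta chain of laminin-332, had 206, 179, 193 and 203 FPKM in siPRMT7 libraries 1 to 4. In siCtrl libraries 1 to 4 it had 203, 192, 199 and 203 FPKM. It varied less than LAMA3, at -0.15 in library 2, and its log2 fold change was -0.03 (95% interval -0.15 to 0.09).

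The chains of the broadly expressed laminins, such as laminin-511 and laminin-521, overlapped between the groups. LAMA5 (chromosome 20), the alpha 5 chain, had 85.1, 57.3, 74.8 and 84.1 FPKM in siPRMT7 libraries 1 to 4, against 80.0, 78.0, 72.5 and 78.4 FPKM in siCtrl libraries 1 to 4. The siPRMT7 libraries held both the 2 highest values and the lowest one. Its log2 fold change was -0.05 (95% interval -0.31 to 0.21), and 0.07 without library 2. LAMC1 (chromosome 1), the gamma 1 chain, had 25.8, 18.4, 23.95 and 25.2 FPKM in siPRMT7 libraries. In siCtrl libraries it had 26.1, 25.3, 25.3 and 27.4 FPKM. Of its siPRMT7 values only that of library 1 reached the siCtrl range, and the log2 fold change was -0.16 (95% interval -0.38 to 0.06) and -0.05 without library 2. The beta 1 chain LAMB1 had 20.3 ± 1.49 FPKM in siPRMT7 and 21.5 ± 0.535 FPKM in siCtrl libraries. The beta 2 chain LAMB2 had 25.8 ± 3.70 FPKM in siPRMT7 and 26.4 ± 0.789 FPKM in siCtrl libraries. LAMA4, the alpha 4 chain known from vessel walls, had 2.53 ± 0.435 FPKM in siPRMT7 and 2.71 ± 0.133 FPKM in siCtrl libraries. For these 3 chains the limma adjusted p was 0.514, 0.866 and 0.704, in the order given. Without siPRMT7 library 2 their log2 fold changes were -0.036, 0.066 and 0.0097, in the same order.

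**Figure D4:**
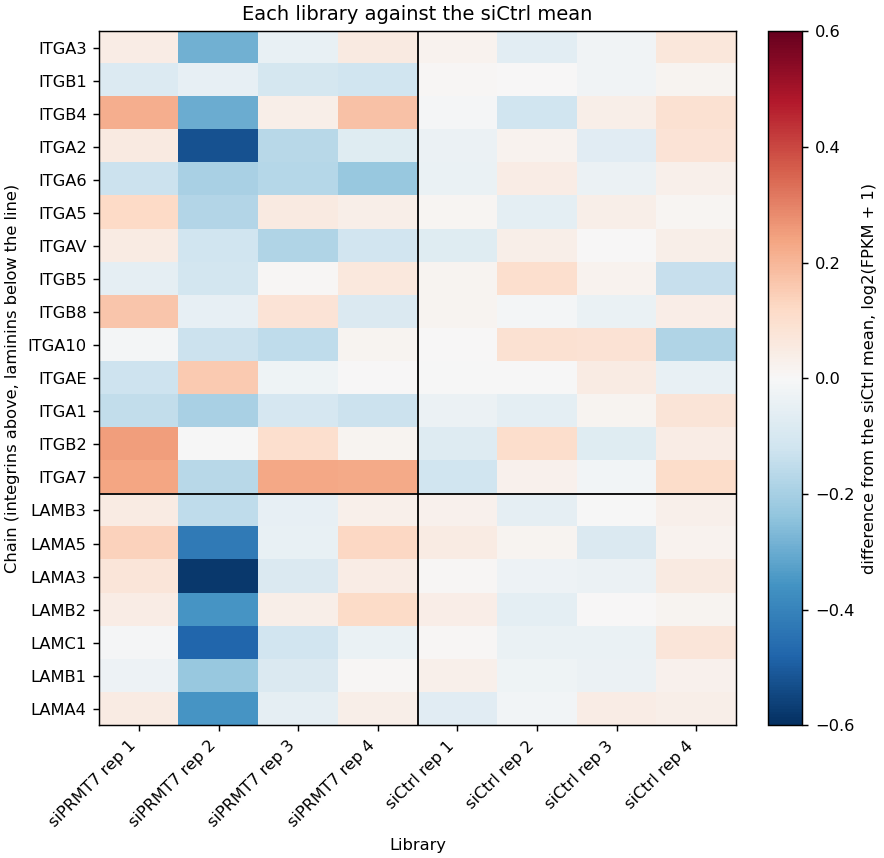
Difference of each library from the siCtrl mean on the log2(FPKM + 1) scale, chains in rows (integrins above the line, laminins below) and libraries in columns (siPRMT7 left of siCtrl), blue for lower and red for higher. The column of siPRMT7 library 2 is blue for all laminins shown, down to -0.58 for LAMA3, while ITGB1, ITGA6 and ITGA1 are blue in all 4 siPRMT7 columns.

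Gene length and library composition moved with the values of siPRMT7 library 2. In it the median difference from the siCtrl mean, on the log2(FPKM + 1) scale, was -0.15 over the 14 integrin chains and -0.39 over the 8 laminin chains. It was -0.09 over the 6023 tested protein-coding genes at least as long as the shortest tested chain (4688 bases) and 0.14 over the 4911 shorter ones. In the other 3 siPRMT7 libraries the laminin median lay between -0.07 and 0.05 and that of the long genes between -0.04 and 0.0005. Ribosomal protein genes took 3.89% of the fragments of that library, against 2.93 to 3.41% in the other 7. With each library's trend on gene length removed, the median log2 fold change was 0.0008 over integrins and -0.04 over laminins. The part of length and library composition in the chain values was not tested.

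**Figure D5:**
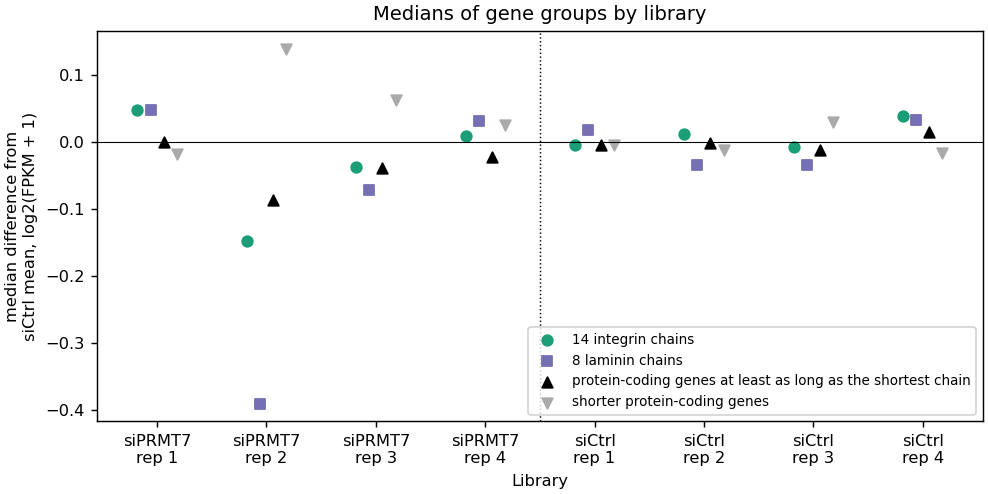
Median difference from the siCtrl mean, on the log2(FPKM + 1) scale, in each library (siPRMT7 left, siCtrl right) for the integrin chains, the laminin chains, the protein-coding genes at least as long as the shortest tested chain and the shorter ones. In siPRMT7 library 2 the laminin median lies at -0.39, below the long genes at -0.09, and the shorter genes lie at 0.14.

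Set side by side, the proportion of receptor to ligand chains overlapped between the groups. The summed FPKM of the 12 laminin chains was 416 ± 45.6 in siPRMT7 and 434 ± 11.4 in siCtrl libraries. That of the 26 integrin chains was 741 ± 61.2 in siPRMT7 and 773 ± 20.4 in siCtrl libraries. Without siPRMT7 library 2 the siPRMT7 means were 437 for laminin chains and 770 for integrin chains. The ratio of laminin to integrin sums was 0.567, 0.536, 0.562 and 0.575 in siPRMT7 libraries 1 to 4, against 0.571, 0.561, 0.557 and 0.556 in siCtrl libraries 1 to 4. Alpha chains summed to 1.75 ± 0.105 times the beta chains in siPRMT7 and to 1.80 ± 0.0245 times in siCtrl libraries; without siPRMT7 library 2 the siPRMT7 mean was 1.80. The median log2 fold change was -0.04 over the 14 integrin chains (8 of 14 below 0) and -0.08 over the 8 laminin chains (8 of 8). Within integrins it was -0.07 over 9 alpha chains and 0.03 over 5 beta chains. Without siPRMT7 library 2 the median was -0.02 over the integrin chains (7 of 14 below 0) and 0.0097 over the laminin chains (3 of 8). No difference between receptor and ligand chains was tested.

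Genes that work with integrins and laminins are given as 6 lists, none of which had a member called over all genes tested. Proteins that activate integrins or link them to actin had a log2 fold change below 0 in 15 of 16 tested members, with a median of -0.12, which was -0.03 (12 of 16) without siPRMT7 library 2. In that list FERMT1, a kindlin that activates integrins, had 9.88 ± 1.62 FPKM in siPRMT7 and 12.4 ± 0.679 FPKM in siCtrl libraries (limma adjusted p = 0.286). Vinculin (VCL) had 67.7 ± 10.7 FPKM in siPRMT7 and 78.1 ± 2.69 FPKM in siCtrl libraries. For both, every siPRMT7 value lay below every siCtrl value, and LIMS2, an adaptor of the ILK complex, was the 1 member wholly above, at 1.74 ± 0.0513 FPKM in siPRMT7 and 1.47 ± 0.0717 FPKM in siCtrl libraries. Of all genes tested 4.43% lay wholly below and 4.14% wholly above. Of 19 focal adhesion signalling genes 10 were above 0 and 9 below, with a median of 0.0009. ITGB1BP1, which binds the beta 1 tail, was wholly above at 7.03 ± 0.590 FPKM in siPRMT7 and 6.25 ± 0.127 FPKM in siCtrl libraries, as was the adaptor BCAR1 at 23.5 ± 0.446 FPKM in siPRMT7 and 22.3 ± 0.208 FPKM in siCtrl libraries.

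Hemidesmosome and tetraspanin partners had a median log2 fold change of 0.15 over 6 tested members, 4 of them above 0, and of 0.10 without siPRMT7 library 2. The 4 were the tetraspanins CD9, CD81, CD151 and TSPAN4, membrane proteins that associate with laminin-binding integrins. CD151 had 97.1 ± 10.8 FPKM in siPRMT7 and 86.7 ± 4.45 FPKM in siCtrl libraries (limma adjusted p = 0.423). CD81 had 42.7 ± 3.30 FPKM in siPRMT7 and 38.0 ± 1.96 FPKM in siCtrl libraries (limma adjusted p = 0.321). Its siPRMT7 values lay wholly above, as did 4.14% of all genes tested. The other tested members, named for their direction after it was seen, are plakins that tie hemidesmosomes to keratin. PLEC had 223 ± 49.3 FPKM in siPRMT7 and 236 ± 13.9 FPKM in siCtrl libraries, and DST had 6.43 ± 1.55 FPKM in siPRMT7 and 7.34 ± 0.503 FPKM in siCtrl libraries, with limma adjusted p of 0.76 and 0.562. Of 6 laminin receptors outside the integrin family, such as dystroglycan (DAG1), 3 were below 0 and none had groups apart. Of 10 basement membrane partners 8 were below 0 (median -0.03), and 4 of 10 without siPRMT7 library 2. Of 9 other integrin ligands 6 were below 0 (median -0.14), and 5 of 9 with a median of -0.02 without that library. In this list tenascin C (TNC) had 17.9 ± 4.10 FPKM in siPRMT7 and 22.3 ± 0.520 FPKM in siCtrl libraries, and LTBP1, which holds latent TGF-beta for integrins, had 37.1 ± 1.97 FPKM in siPRMT7 and 41.1 ± 1.40 FPKM in siCtrl libraries. Both lay wholly below, as did the 4.43% of all genes given above, and the limma adjusted p was 0.383 for TNC and 0.291 for LTBP1. The adhesion molecule ICAM1, a ligand of beta 2 integrins, had 20.8 ± 1.95 FPKM in siPRMT7 and 18.04 ± 1.03 FPKM in siCtrl libraries. The growth factor TGFB1, whose latent form binds alpha V integrins, had 76.5 ± 3.21 FPKM in siPRMT7 and 71.4 ± 1.71 FPKM in siCtrl libraries. Both had higher means in siPRMT7 with overlapping groups, and a limma adjusted p of 0.31 for ICAM1 and 0.374 for TGFB1. At an unadjusted limma p under 0.05 this list held 2 higher members, ICAM1 and TGFB1, and 1 lower, LTBP1. Of all genes tested 7.67% were higher and 5.49% lower at that threshold.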

How the data were processed

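The deposited table holds FPKM values per gene that the authors made; per the submitters' processing notes, cutadapt 2.5, HISAT2 2.1.0 and featureCounts 1.6.3 were used. The notes name a mouse build, but all 58735 identifiers are human, and start, end and strand match GENCODE release 29 on GRCh38, whose coordinates are used. The gene lengths deposited by the authors, in bases, equal the union of exons for all 38 chains.

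The values appear to have been scaled between libraries before deposit, since the library size that 1 fragment implies differs from the fragment total.

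FPKM times length gave whole fragments, within 0.01 beyond the rounding of the file, for 100% of values above 0. Genes with FPKM at least 1 in at least 4 of 8 libraries were tested by limma 3.58.1 in R 4.3.3 on log2(FPKM + 1) with a variance trend, two-sided, with Benjamini-Hochberg adjustment over all 13436 genes. The voom fit of limma ran on rebuilt fragments as an alternative. A floor of 3 fragments was used.

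Members, lists and tests were chosen with earlier results of these data known. Every chain could be named, and of each list up to 4 genes with the smallest p. Alternatives covered pseudocount, filter, scaling, variance model, library weights, gene length, features tested, replicate block and leaving out each library. The fit was tested on simulated data. Some items, among them a chain that stays in the counts and medians, are not reported here.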

Additional observations from a re-analysis of the deposited data

Results flagged for a closer look

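Within the 22 tested chains and 2 groups, 44 sets of 4 libraries were examined for a library far from the other 3, and 1 was found, where about 1 in 20 sets would be by chance. ITGA7 had 0.700 FPKM in siPRMT7 library 2, while the other siPRMT7 libraries lay between 1.24 and 1.25 FPKM; the siCtrl libraries lay between 0.761 and 1.06 FPKM. The gap to the nearest library was 0.971 of the range, above the 95% critical value of Dixon's test for 4 values.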

How the results depend on the processing

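Under 20 alternatives, none of the 22 chains passed an adjusted p of 0.05, and the smallest was 0.0762, for ITGA6 with library weights. Of 433 pairs of chain and alternative 30 changed sign, and 11 chains never did. Among these, ITGA6, ITGB1, ITGA1, ITGA2, LAMC1 and LAMB1 stayed below 0, while ITGA7 and ITGB2 stayed above 0. On the TPM scale the log2 fold change was -0.0074 for ITGB4, -0.033 for ITGA5, -0.0048 for ITGB8 and -0.027 for ITGAE, and the median of all genes moved to -0.04. With quantile normalization it was -0.056 for ITGB4 and -0.024 for ITGA5. With library weights it was 0.022 for LAMA5, 0.042 for LAMB2 and -0.026 for ITGAE, with the length trend removed 0.0017 for ITGA3 and 0.039 for LAMA5, and with voom -0.0017 for ITGAE. Without 1 library the log2 fold changes ranged from -0.10 to 0.018 for ITGA3, -0.058 to 0.011 for LAMB3, -0.029 to 0.14 for ITGB4, -0.12 to 0.073 for LAMA5, -0.21 to 0.0096 for LAMA3, -0.0303 to 0.068 for ITGA5, -0.092 to 0.066 for LAMB2, -0.0698 to 0.0102 for ITGB5, -0.018 to 0.067 for ITGB8, -0.13 to 0.0097 for LAMA4 and -0.0499 to 0.043 for ITGAE. Genes called higher over the whole table numbered 1 with a pseudocount of 0.1, with FPKM at least 5 and with quantile normalization, 11 with voom on rebuilt fragments and with protein-coding genes alone, and 46 with library weights. Genes called lower numbered 2 with no filter, 1 with voom and 12 with library weights, and without 1 library 0 to 4 were called higher and 0 to 1 lower; the cause was not tested. The medians of integrin and laminin chains ranged from -0.08 to 0.0008 and from -0.12 to 0.0097. PRMT7 on the TPM scale had a log2 fold change of -0.14 and an exact permutation p of 0.0286. With the replicate block 0 genes were called higher and 0 lower. Deviations of same-numbered libraries correlated at -0.0314, -0.0133, 0.0451 and 0.0613, within the range of differently numbered ones, -0.1222 to 0.1307. No pairing by replicate number was seen, but these correlations cannot exclude one. Depth limits the lowest chains most, with 67 to 124 fragments of ITGA7 in a library.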
